A study of Mus musculus with 12 samples.

Results

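The genes described here encode the proteins of the cytosolic ribosome. The rule that picks them uses symbol and gene type. A row counted as a member if it was typed as mRNA and its symbol was Rpl or Rps with a number and an optional a or x, or was Rplp0, Rplp1, Rplp2 or Rpsa. One row that fits this pattern was left out, and 75 of the 44760 genes with the same name in both count tables were kept, 45 of the large and 30 of the small subunit. All 75 passed the filter on low counts in every fit, so that none dropped out for a low value.

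The ribosome joins amino acids into protein. Most of its proteins are needed in about equal amounts because the particle holds a single copy of each of these. The mRNAs are short and very abundant. Many begin with a C and a run of pyrimidines (C or T) at the transcription start, the TOP motif, through which mTOR signalling sets how strongly they are translated. In neurons, ribosomes sit in cell bodies and near synapses, where local protein synthesis serves lasting changes in synaptic strength.

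The 4 groups were 18-month nicotine, 18-month saline, 7-month nicotine and 7-month saline, with 3 libraries each from the hippocampus of male APPswe/PS1dE9 mice on a C57BL/6 background (N9B6). All groups carry the same transgenes, human amyloid precursor protein with the Swedish mutation and presenilin 1 without exon 9, and a wild-type group is not analysed here. Plaques in this line are labelled to appear at 4 months, before both ages studied. A subcutaneous osmotic pump gave nicotine hydrogen tartrate or saline for 14 days, at a dose labelled 48 mg/kg/h, a unit taken over as given. The promoter of the transgenes and whether a library is 1 animal are not given in the sources used here, so p-values measure the spread between libraries, which may be technical.

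Libraries held 21260068 to 23715015 counts at 18 months and 25071195 to 29245972 at 7 months. All 11 hippocampal neuron markers checked were above 0. Their summed levels were 8058 to 9369 CPM at 18 months and 6069 to 7816 CPM at 7 months. The single markers did not move together. Their log2 fold changes, 18 over 7 months, ran from -0.66 to 4.71 in saline mice, with a median of 0.04. In nicotine mice they ran from -0.34 to 5.52, with a median of 0.03. The 15 glial and vascular markers checked summed to 5089 to 7820 CPM at 18 months and 5233 to 7704 CPM at 7 months. CPM are counts scaled to a common library size by TMM factors over all 12 libraries. Sums over lists of markers, as here, use library totals without TMM factors. The 7-month saline library 2 stood apart. Genes with transcripts over 5000 nt took 12.6% of its counts, where the rest of that age had 8.33% to 8.69%. The 18-month libraries had 14.5% to 14.9%. Results that rest on saline library 2 are given with and without it. The ages were deposited as separate tables, so age cannot be told apart from the table, the library series or the sequencing run.

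Start-site sequences are shown because the TOP motif is the feature that sets these mRNAs apart from most others. RefSeq promoters (GRCm38.p6) were found for 55 of the 75 members. A C stood at the annotated start in 34.5% of them, against 16.2% of 27025 symbols in the table. A pyrimidine run of 8 or more bases reached to within 5 bases of the start in 34.5% of members and in 9.63% of all symbols. CTTTC or CTTTT, short pyrimidine strings searched 10 bases either side of the start, lay on the transcript strand in 21.8% of members and 4.30% of all symbols, and on the other strand in 3.64% and 3.76%. The strings overlap such runs by construction. The 40 bases around the start of 11 members follow, 5′ to 3′ on the transcript strand, with the start at base 21 and the longest pyrimidine run near it in capitals. They run from long runs to short ones and hold members with large and small differences with age. The motif is more frequent here than among all members, since 9 of the 11 start with C and 8 of the 11 have a run of 8 or more.
Rpl15: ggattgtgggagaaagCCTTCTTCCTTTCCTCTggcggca
Rps10: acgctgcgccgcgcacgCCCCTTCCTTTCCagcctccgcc
Rpl28: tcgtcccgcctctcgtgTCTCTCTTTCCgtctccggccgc
Rps18: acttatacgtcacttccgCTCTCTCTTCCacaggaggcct
Rps6: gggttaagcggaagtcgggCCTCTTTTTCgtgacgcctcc
Rpl38: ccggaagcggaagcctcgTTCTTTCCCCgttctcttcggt
Rplp2: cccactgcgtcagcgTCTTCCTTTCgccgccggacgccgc
Rps27: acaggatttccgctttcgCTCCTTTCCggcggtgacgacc
Rps21: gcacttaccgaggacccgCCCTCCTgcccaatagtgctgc
Rpl39: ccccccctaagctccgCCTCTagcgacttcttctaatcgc
Rpl22: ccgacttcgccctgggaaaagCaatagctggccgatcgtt

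The windows lie on the plus strand for Rpl28 (chr7:4792945-4792984), Rpl38 (chr11:114668560-114668599), Rplp2 (chr7:141447631-141447670), Rps21 (chr2:180257359-180257398) and Rpl22 (chr4:152325706-152325745). They lie on the minus strand for Rpl15 (chr14:18270967-18271006), Rps10 (chr17:27635225-27635264), Rps18 (chr17:33955646-33955685), Rps6 (chr4:86857348-86857387), Rps27 (chr3:90213629-90213668) and Rpl39 (chrX:37085203-37085242). Rpl15 has a run of 17 pyrimidines and Rpl22 no run beyond a single C. A start read from an annotation can be a few bases off, and a missing run says only that these letters are absent from this window.

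The 75 genes together made up about 1% of each library at 18 months and about 2% at 7 months. Their share was 0.977%, 0.921% and 0.934% of counts in the 18-month nicotine libraries 1 to 3, and 0.933%, 0.957% and 0.917% in the 18-month saline libraries. At 7 months it was 2.29%, 2.17% and 2.08% in the nicotine libraries, and 2.14%, 1.29% and 2.08% in the saline libraries. Counting error is small beside this spread. The exact (Clopper-Pearson) 95% interval of the lowest 7-month share, that of saline library 2, was 1.289% to 1.298%, and intervals cover counting error only. Mean shares were 0.944% ± 0.030 in 18-month nicotine, 0.936% ± 0.020 in 18-month saline, 2.18% ± 0.102 in 7-month nicotine and 1.84% ± 0.471 in 7-month saline libraries (SD, n = 3 each). Saline library 2 lay between the 18-month libraries and the rest of the 7-month libraries.

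**Figure D1:**
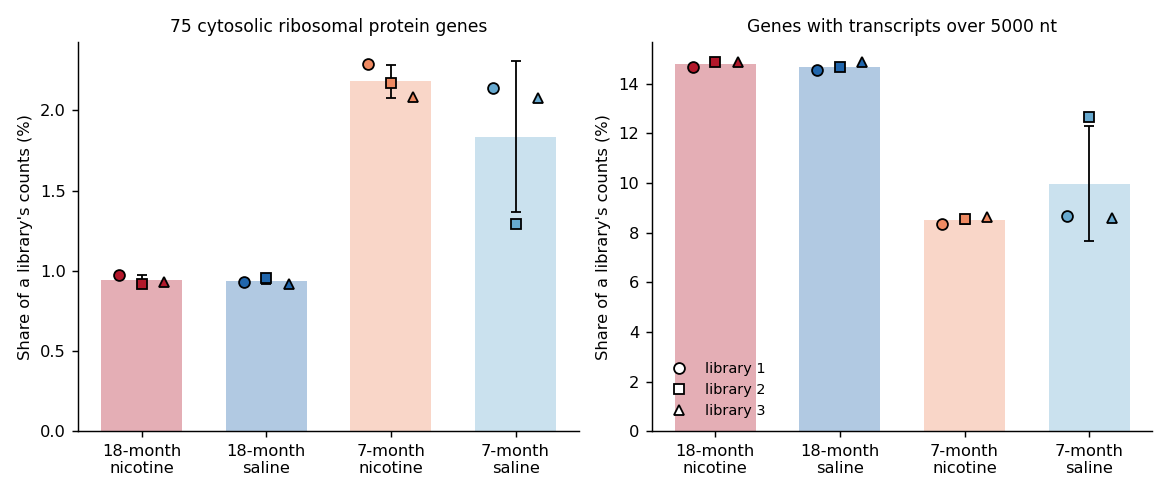
Share of each library's counts (y axis, percent) taken by the 75 cytosolic ribosomal protein genes (left) and by genes with transcripts over 5000 nt (right), by group; bars are means, error bars SD of 3 libraries, points single libraries. The ribosomal protein share is near 0.94% in the 18-month groups, and the 7-month saline library 2, with 1.29%, has the highest share of long-transcript genes at that age, 12.6%.

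Levels differed widely between the genes, although most of their proteins are needed in like amounts. Levels are given per kilobase (kb) of the mean annotated coding transcript. Rplp1, an acidic protein of the stalk that recruits translation GTPases, was highest, with 629 ± 38.7 CPM per kb at 18 months and 1519 ± 345 CPM per kb at 7 months (SD, n = 6 each). Next came Rpl3, a protein near the peptidyl transferase centre, with 459 ± 57.7 CPM per kb at 18 months and 815 ± 138 CPM per kb at 7 months. Rpl13a, a common reference gene, had 441 ± 20.7 CPM per kb at 18 months and 813 ± 162 CPM per kb at 7 months. Rps21 had 270 ± 13.7 and Rps15 315 ± 12.4 CPM per kb at 18 months, against 861 ± 192 and 812 ± 171 CPM per kb at 7 months. Rplp1 stood above the rest at 18 months, where its lowest library had 587 CPM per kb and the highest library of Rpl3 had 525. The means of Rpl3, Rpl13a, Rps21 and Rps15 lay close together at 7 months. Their SDs include shifts that the genes share within a library, so they cannot judge differences between genes, which were not tested.

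The lowest levels per kb were those of Rps20, Rpl22, Rps15a, Rps26 and Rpl15. Rps20 had 17.6 ± 1.10 CPM per kb at 18 months and 42.7 ± 9.25 CPM per kb at 7 months, and Rpl22, which mice can live without, 54.9 ± 1.44 CPM per kb at 18 months and 89.2 ± 11.4 CPM per kb at 7 months. Rps15a had 47.9 ± 2.61, Rps26 55.1 ± 2.14 and Rpl15 75.8 ± 5.04 CPM per kb at 18 months. These low ranks lean on annotated length. The coding transcript of Rps20 is listed at 3706 nt and those of Rps15a at 2077.5 nt on average, while the median over members is 730 nt. Rps26 has a copy row that took 584 to 1129 counts per library, described below. By the longest transcript instead of the mean, Rplp1 stayed first and Rpl13a ranked 11.

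**Figure D2:**
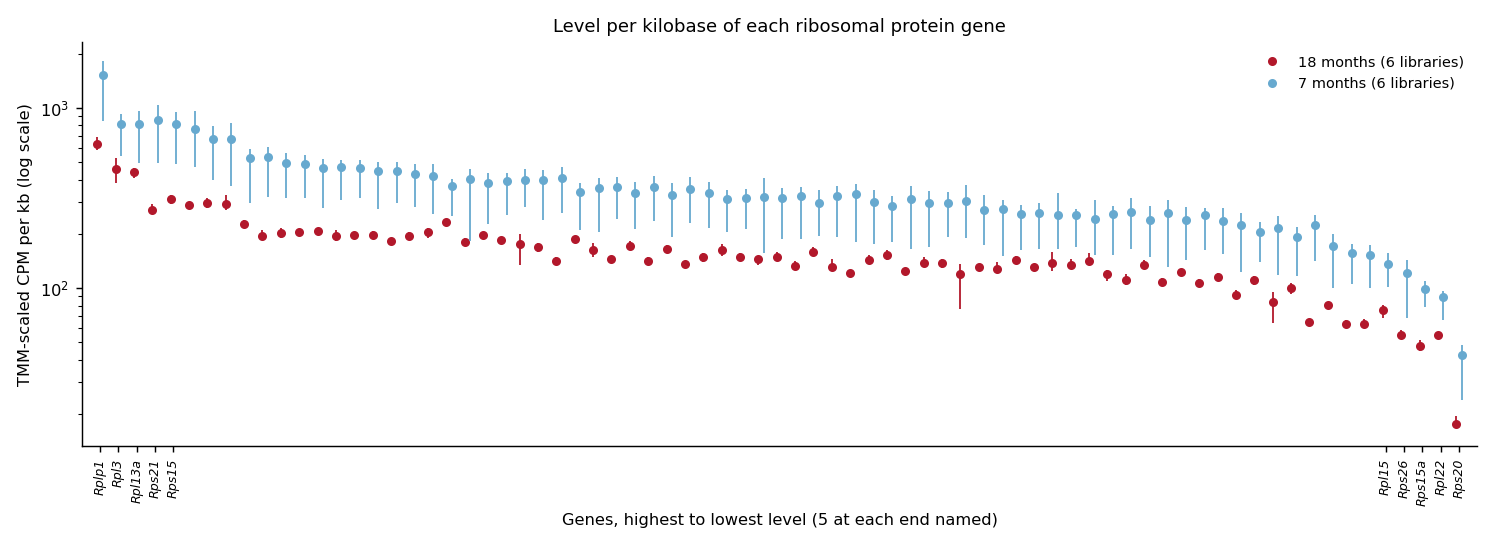
Level per kilobase (y axis, TMM-scaled CPM per kb, log scale) of each of the 75 genes, ordered from highest to lowest over all libraries (x axis, 5 genes at each end named); points are means and lines the range of 6 libraries at 18 months and 6 at 7 months. Every mean is lower at 18 months, from Rplp1 (629 against 1519 CPM per kb) to Rps20 (17.6 against 42.7).

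All 75 genes were lower at 18 than at 7 months, in nicotine and in saline mice. In nicotine mice 75 of 75 fell at an adjusted p below 0.05 (edgeR quasi-likelihood test with Benjamini-Hochberg adjustment over 19171 genes), where 29.8% of all genes tested fell. The median log2 fold change of the members was -1.30, a level 0.407 times that at 7 months, and the median of all genes was -0.03. In saline mice 75 of 75 fell, against 24.6% of all genes, with a median of -1.01 or 0.497 times. In bulk tissue, fewer cells of a type and less RNA per cell cannot be told apart.

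Rpl39, a small protein that lines the exit tunnel of the large subunit, fell the most. It had 41.1, 38.8 and 39.5 CPM in 18-month nicotine and 156, 143 and 144 CPM in 7-month nicotine libraries, and 39.4, 39.1 and 39.3 CPM in 18-month saline and 139, 86.8 and 149 CPM in 7-month saline libraries. The ages do not overlap, and saline library 2 is the lowest at 7 months. The log2 fold change was -1.89 (SE 0.16, adjusted p = 1.5e-05) in nicotine mice and -1.67 (SE 0.16, adjusted p = 5.1e-05) in saline mice. Rps21, a small-subunit protein, fell by 1.84 on the log2 scale in nicotine and by 1.48 in saline mice. Rpl38, the gene mutated in tail-short mice, had -1.65 in nicotine and -1.40 in saline mice, both past the test. Rpl29, at the surface of the large subunit, fell by 1.72 in nicotine mice, where it was among the 3 largest falls, and by 0.91 in saline mice. It stood low in 18-month nicotine library 1 and 7-month saline library 3. With single libraries left out its log2 fold change was -1.88 to -1.51 in nicotine and -1.02 to -0.61 in saline mice. The test of the difference between nicotine and saline mice is given below.

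The smallest falls in saline mice were those of Rpl4, Rpl22 and Rps7. Rpl4, a large-subunit protein, had 364, 351 and 361 CPM in 18-month nicotine and 609, 592 and 569 CPM in 7-month nicotine libraries, and 359, 358 and 345 CPM in 18-month saline and 619, 387 and 609 CPM in 7-month saline libraries. No 18-month library reached the lowest 7-month library, which was saline library 2. Its log2 fold change was -0.72 (SE 0.14, adjusted p = 0.00099) in nicotine and -0.61 (SE 0.14, adjusted p = 0.0048) in saline mice. Rpl22 fell by 0.78 in nicotine and 0.61 in saline mice, Rps7 by 0.91 and 0.63, and Rpl15 by 0.91 and 0.77. Of the genes whose start sites are shown, Rpl38, with a run of 10 pyrimidines, Rps21, with a run of 7, and Rpl39, with a run of 5, had the 3 largest falls in saline mice. Rpl15, with a run of 17, and Rpl22, with a single C, were among the 3 smallest in nicotine mice.

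The falls spanned every functional class. Among the stalk proteins Rplp0, which forms the base, fell by 1.03 in nicotine and 0.76 in saline mice, and Rplp1 by 1.42 and 1.10. Rplp2 fell by 1.40 in nicotine mice and fell by 1.21 in saline mice. Rpl5 and Rpl11, which bind a small ribosomal RNA and, when free, the p53 ligase Mdm2, fell by 0.85 and 1.20 in saline mice. Near the catalytic centre Rpl3 fell by 0.70 and the late-joining Rpl10 by 1.20 in saline mice. Rpl24, mutated in belly spot and tail mice, fell by 0.92, and the reference genes Rpl13a and Rpl32 by 0.77 and 0.92 in saline mice. Rpl41, the smallest ribosomal protein, was the median member in saline mice with -1.01 (SE 0.19, adjusted p = 0.0016).

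On the small subunit Rps6, the substrate of S6 kinase, had 189, 180 and 177 CPM in 18-month nicotine and 427, 384 and 380 CPM in 7-month nicotine libraries, and 183, 177 and 167 CPM in 18-month saline and 388, 227 and 393 CPM in 7-month saline libraries. All 7-month values lie above all 18-month values, and its log2 fold change in saline mice was -0.94 (SE 0.16, adjusted p = 0.0011). Rpsa, also known as the laminin receptor precursor, fell by 1.12, Rps3, at the mRNA entry site, by 0.75, and Rps14, a platform protein, by 1.06 in saline mice. Rps19, whose human gene is the one most often mutated in Diamond-Blackfan anaemia, fell by 1.15, Rps25 by 0.83, the X-linked Rps4x by 0.90 and the small zinc-binding Rps29 by 1.24 in saline mice. Rps27a, made as a fusion with ubiquitin, fell by 1.28. Rps18, a head protein and reference gene, fell by 0.98 (adjusted p = 0.0075) and was the single member whose saline groups overlapped, with 103, 96.9 and 98.5 CPM at 18 months and 245, 99.0 and 244 CPM at 7 months. Its copy row Gm10260, 99.1% identical over 545 nt, took 1002 counts in the low library, 7-month saline library 2, and 3 to 15 in the others. Summed, the pair had 138 CPM in that library, where the 18-month saline libraries had 97.1 to 103 CPM, so that the sums do not overlap. Groups did not overlap for the other 74, where 25.7% of all genes were lower without overlap. In nicotine mice the groups of all 75 lay apart, as did 34.5% of all genes in that direction.

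Every gene of both subunits fell with age, and the difference between the subunits was not tested. Median log2 fold changes were -1.28 for the 45 large-subunit and -1.30 for the 30 small-subunit genes in nicotine mice, and -1.01 and -1.02 in saline mice. With offsets for length and GC, described below, they were -0.82 and -0.93 in nicotine mice and -0.65 and -0.76 in saline mice. The ratio of summed large-subunit to small-subunit counts was 1.64 ± 0.025 at 18 months and 1.53 ± 0.025 at 7 months (SD, n = 6 each). The lowest 18-month ratio, 1.592, lay above the highest 7-month ratio, 1.552. The ratio weighs genes by their counts, which the medians do not.

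**Figure D3:**
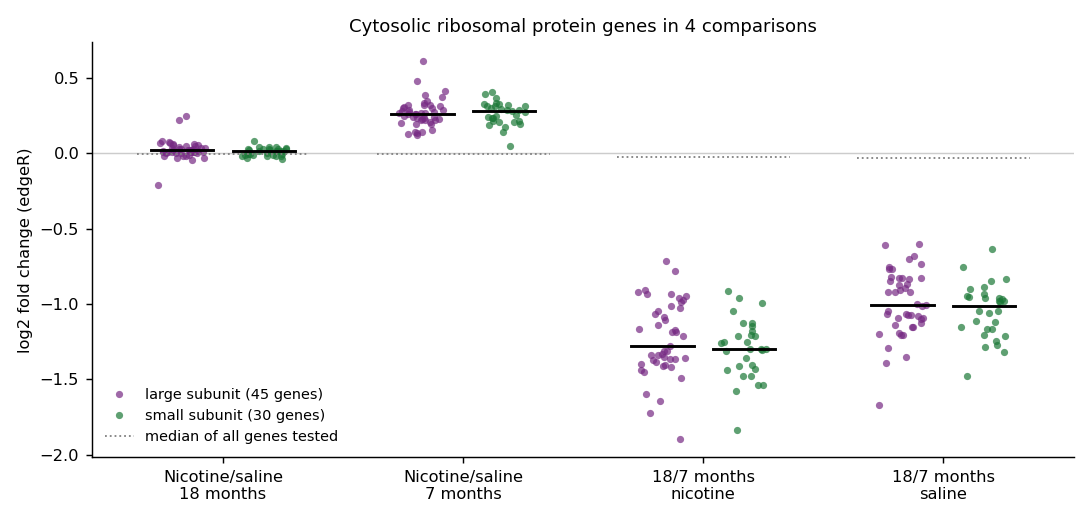
Log2 fold change (y axis, edgeR) of each ribosomal protein gene in the nicotine comparisons at 18 and 7 months and the age comparisons in nicotine and saline mice; points are genes, split by subunit, black lines their medians and dotted lines the median of all genes tested. Members cluster near 0.01 at 18 months and 0.27 at 7 months for nicotine, and at -1.30 and -1.01 for age.

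Short mRNAs as a class were lower in the 18-month libraries, and ribosomal protein mRNAs are short. Genes with transcripts under 1000 nt took 5.36% to 5.59% of counts at 18 months and 9.90% to 10.4% at 7 months, apart from 6.69% in saline library 2. Among other protein-coding genes the median log2 fold change with age in saline mice was -0.81 under 750 nt (490 genes), -0.46 from 750 to 1500 nt and 0.45 over 5000 nt. Of these genes 65.7% under 750 nt and 56.3% from 750 to 1500 nt fell past the test in saline mice. In nicotine mice 73.9% and 65.8% did. The 40 members under 750 nt had a median of -1.07 and the 30 members from 750 to 1500 nt a median of -0.89. Offsets fitted to transcript length and GC content in each library gave the members a median of -0.83 in nicotine and -0.69 in saline mice. The same 16198 genes without offsets gave -1.24 and -0.94. With these offsets in edgeR 75 of 75 members still passed in nicotine mice and 74 of 75 in saline mice, where Rpl29 had an adjusted p of 0.0547. Among all genes of that fit 26.4% fell in nicotine and 19.7% in saline mice. Among the members themselves the change in saline mice and log2 length had Pearson's r = 0.37 and Spearman's rho = 0.43 across 75 genes, which share the same libraries and are not independent. Malat1, Neat1, Meg3, Rn18s-rs5, Rn7sk and Lars2 were listed as signs of RNA composition. Without TMM factors they summed to 37859 to 45876 CPM at 18 months and 4251 to 24716 CPM at 7 months. Markers of choroid plexus, pituitary, meninges and blood stand for tissues that a dissection can carry along. They summed to 80.7 to 1570 CPM at 18 months and 232 to 6480 CPM at 7 months, with 0 of 15 at 0 in all libraries. In each of the nicotine and saline mice 5 of the 14 tested fell, where 29.8% and 24.6% of all genes fell. The part of either list in the result was not tested.

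**Figure D4:**
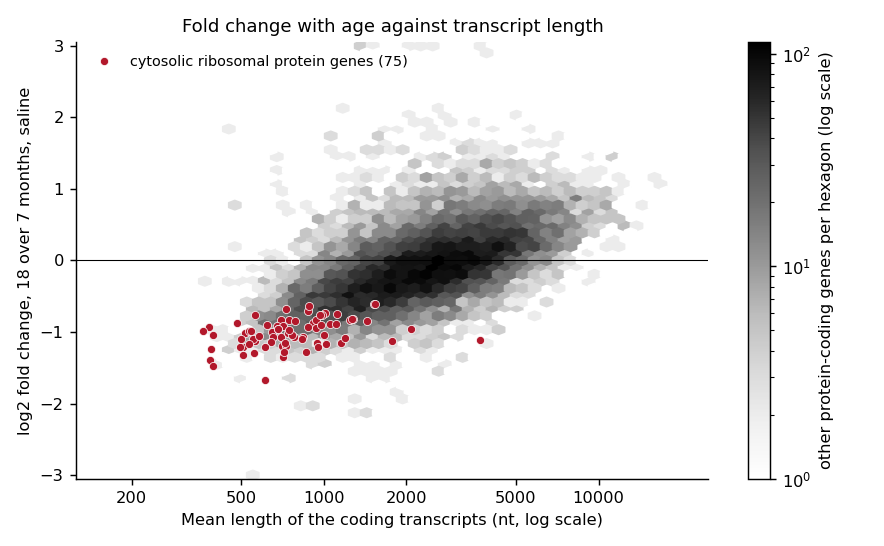
Log2 fold change at 18 over 7 months in saline mice (y axis) against mean coding transcript length (x axis, nt, log scale) for the 75 ribosomal protein genes (red) and other protein-coding genes (grey hexagons, darker with more genes; changes beyond 3 drawn at 3). Short transcripts lie lower, with medians of -1.07 for members and -0.81 for other genes under 750 nt.

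At 18 months nicotine and saline libraries had nearly the same levels of these genes. In edgeR's quasi-likelihood test 0 of 75 members passed, where 0.0440% of 18196 genes did. Only Rpl21 and Rpl34 had an unadjusted p below 0.05, against 6.73% of all genes, and DESeq2 called 0 members with 2 at that level. The median log2 fold change was 0.01, 52 of 75 were above 0 against 48.1% of all genes, and the range was -0.21 to 0.24. Standard errors were small, 0.04 to 0.17 with a median of 0.05, against a median of 0.19 at 7 months. Nicotine libraries lay above all saline libraries for 3 members, where 5.60% of all genes did so.

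Rpl34, a large-subunit protein, had 67.1, 63.1 and 64.0 CPM in nicotine and 58.6, 45.3 and 58.6 CPM in saline libraries at 18 months, a log2 fold change of 0.24 (SE 0.09, adjusted p = 0.67). Saline library 2 is the low one, and with single libraries left out the log2 fold change was 0.14 to 0.31. Rpl21 had 170, 203 and 195 CPM in nicotine and 165, 159 and 160 CPM in saline libraries, a log2 fold change of 0.22 (SE 0.07, adjusted p = 0.61). The groups of both genes lie apart by a narrow gap. At the other end Rpl29 had 47.6, 84.4 and 77.5 CPM in nicotine and 81.7, 79.6 and 78.2 CPM in saline libraries, a log2 fold change of -0.21 that came from nicotine library 1. Without that library it was 0.01. Rpl36a and Rps18 followed with -0.05 and -0.04. Rpl38 was the median member, with 57.2, 56.0 and 51.9 CPM in nicotine and 55.4, 53.6 and 52.9 CPM in saline libraries, groups that overlap.

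At 7 months nicotine changed no ribosomal protein gene past the test, although all fold changes leaned the same way. In edgeR's quasi-likelihood test 0 of 75 members passed, where 0.0114% of 17596 genes did. Only Rpl29 had an unadjusted p below 0.05, against 6.50% of all genes, and the smallest adjusted p was 0.656. DESeq2 called 0 members, with 2 at an unadjusted p below 0.05. All 75 log2 fold changes were above 0, where 48.7% of all genes were, with a median of 0.27 and a range of 0.04 to 0.61. The nicotine libraries lay above all saline libraries for 23 members, where 8.77% of all genes did so, on the scaling of the 7-month fit.

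Rpl29 had 223, 235 and 233 CPM in nicotine and 206, 119 and 125 CPM in saline libraries at 7 months. The groups do not overlap, but saline library 1 is near the nicotine values. Its log2 fold change was 0.61 (SE 0.20, adjusted p = 0.656). Rpl36, a large-subunit protein, had 134, 156 and 140 CPM in nicotine and 127, 60.3 and 120 CPM in saline libraries, a log2 fold change of 0.48. Rpl18 had 214, 217 and 220 CPM in nicotine and 194, 104 and 190 CPM in saline libraries, a log2 fold change of 0.41. In both, saline library 2 is far below the rest and the other saline libraries are slightly below the nicotine ones. The lowest values were those of Rps2, Rpl4 and Rpl30, with 0.04, 0.12 and 0.13. Rpl3, close to the median member, had 813, 782 and 752 CPM in nicotine and 720, 477 and 737 CPM in saline libraries, a log2 fold change of 0.27.

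The size of the shift rested on 1 library. Without saline library 2 the median was 0.06 and 67 of 75 values were above 0, with 0 members past the test. Without saline library 2 and nicotine library 1, the libraries with the lowest and highest share of ribosomal protein counts, the median was 0.04 with 55 above 0. With offsets for length and GC the median was 0.13. The other protein-coding genes under 750 nt had a median of 0.22 in the same comparison and those over 5000 nt -0.25. The 15 markers of choroid plexus, pituitary, meninges and blood summed to 232 to 6480 CPM in nicotine and 437 to 1738 CPM in saline libraries at 7 months. Their part in the result was not tested.

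The nicotine effect was not shown to differ between the ages. In a fit of all 12 libraries 0 of 75 members passed the test of the difference, 18 minus 7 months, where 0.00522% of 19171 genes did. DESeq2 called 0 as well. Only Rpl29 had an unadjusted p below 0.05, in both tools, against 7.85% of all genes in edgeR. The median difference was -0.24 on the log2 scale and all 75 were below 0, where 48.2% of all genes were. Rpl29 had -0.81 (SE 0.30, adjusted p = 0.62), Rpl18 -0.42 and Rpl36 -0.41. The values nearest 0 were -0.02 for Rpl34, -0.04 for Rps2 and -0.07 for Rpl30. Without 7-month saline library 2 the median was -0.05 and 18 of 75 were above 0.

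Within an age the members kept steady proportions to one another. Relative to the geometric mean of all members in the same library, the SD over 6 libraries was below 0.1 on the log2 scale for 69 of 75 genes at 18 months and 59 of 75 at 7 months. The steadiest were Rps13 at 18 months, with an SD of 0.014, and Rpl12 at 7 months, with 0.022. Only 9 of all library values departed from the age's median by 0.4 or more, and 5 of them belonged to Rps2 or Rpl29. Rpl21 in 7-month saline library 3, Rps15a and Rps18 in 7-month saline library 2, and Rpl34 in 18-month saline library 2 were the other 4. The copy row of Rps18 in that library is given above. These departures were picked for their size and are a description.

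Rps2, at the mRNA entry of the small subunit, showed the clearest case. It had 143, 194 and 202 CPM in 18-month nicotine, 205, 191 and 137 CPM in 18-month saline, 470, 465 and 306 CPM in 7-month nicotine, and 450, 287 and 457 CPM in 7-month saline libraries. The libraries that stand low are 18-month nicotine 1, 18-month saline 3 and 7-month nicotine 3, beside 7-month saline library 2. In the first 3 of these Rps2-ps10, a row typed ncRNA whose transcript matches that of Rps2 at 98.1% identity over 939 nt, had 1443, 1211 and 2558 counts. In the other 9 libraries it had 0 to 18, with 0 in 7-month saline library 2. Rps2 (chr17:24718121-24721927) and Rps2-ps10 summed gave 204, 194 and 202 CPM in 18-month nicotine and 205, 192 and 192 CPM in 18-month saline libraries. The sum averaged 200 ± 5.12 CPM in 18-month nicotine and 196 ± 7.81 CPM in 18-month saline libraries, where Rps2 alone had 180 ± 32.0 and 178 ± 36.2 CPM (SD, n = 3 each). At 7 months the sum in nicotine library 3 was 405 CPM.

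Rpl3 (chr15:80077781-80083406) had a like pattern at 18 months. It had 459, 337 and 430 CPM in nicotine and 427, 342 and 417 CPM in saline libraries. Library 2 is the low one in both groups. There Rpl3-ps1, 99.8% identical over 1210 nt, had 1459 counts in nicotine and 1610 in saline mice, while the remaining 18-month libraries had 399 to 482 and those of 7 months 13 to 112. Summed, the pair had 480, 405 and 449 CPM in 18-month nicotine and 445, 415 and 435 CPM in 18-month saline libraries. Rpl29 (chr9:106428889-106431568) was low in 18-month nicotine library 1 and 7-month saline library 3, with 47.6 and 125 CPM. Its copy row Gm8210, 99.4% identical over 483 nt, had 50 and 123 counts in these libraries and 0 to 3 in the others. Here the sum remained low, at 49.7 and 129 CPM. Rpl34-ps1, 99.4% identical to Rpl34 over 354 nt, had 44 and 117 counts in 18-month saline libraries 1 and 2 and 0 to 4 in the others.

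**Figure D5:**
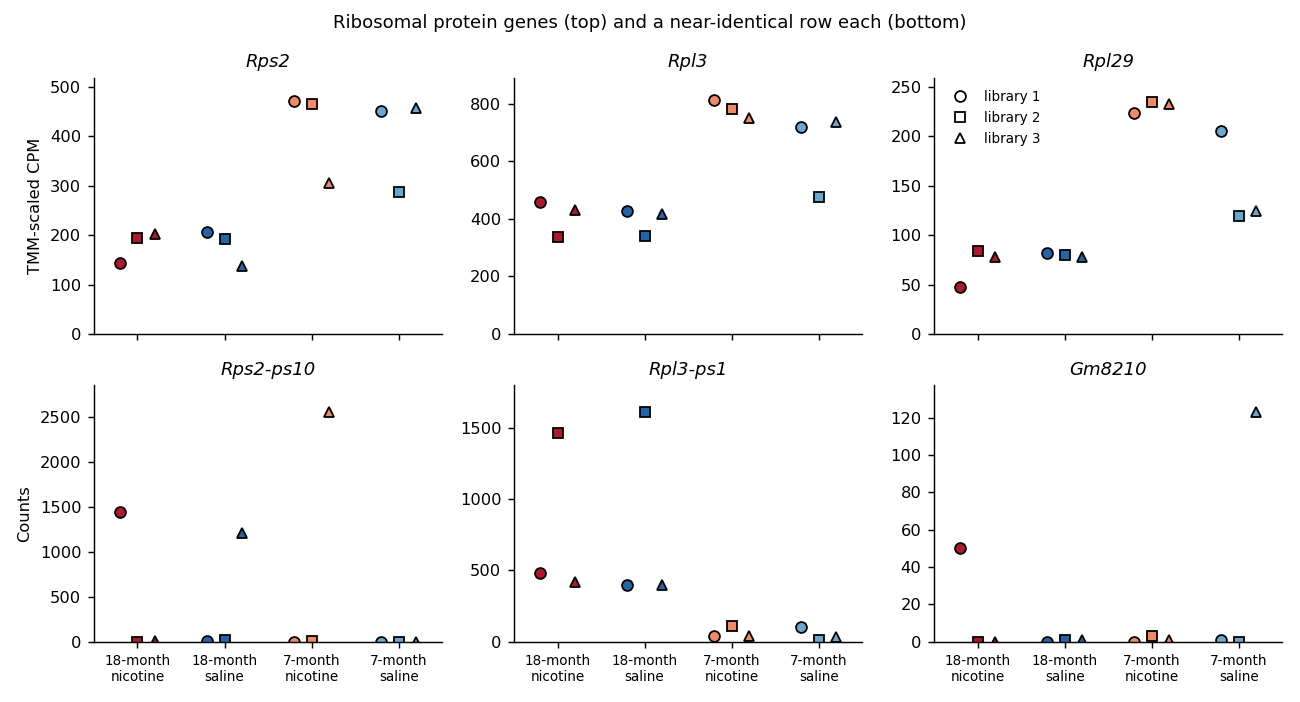
Rps2, Rpl3 and Rpl29 by library (top, TMM-scaled CPM) and a near-identical row of each (bottom, raw counts); colours are groups and symbols libraries 1 to 3. Rps2-ps10 has 1211 to 2558 counts in 3 libraries where Rps2 is low and 0 to 18 elsewhere, 7-month saline library 2 with its low Rps2 included, and Rpl3-ps1 is highest in both 18-month libraries numbered 2.

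Near-identical rows were the rule for this gene family. By BLAST, with at least 95% identity over at least 200 nt, 68 of 75 members had at least 1 such row in the tables, 450 rows in all. How reads with several matches were assigned is not given in the sources used here, so that counts of these members are uncertain by what their copies hold. The largest by total over the 12 libraries were BC004004 for Rpl21, with 736 to 1697 counts per library, Rps26-ps1 for Rps26, with 584 to 1129, and Gm6472 for Rps7, with 229 to 936. The lowest 18-month share of Rps26-ps1 in the counts of its pair was 43.4%, and the highest 7-month share was 32.8%. The sum of the pair therefore differed less with age than Rps26 alone. It averaged 69.8 CPM in 18-month and 126 CPM in 7-month nicotine libraries, and 68.4 and 103 CPM in saline libraries. For BC004004 and Gm6472 the shares overlapped between the ages. The 280 rows named after a member with the suffix ps held counts equal to 1.48% to 2.29% of the members' counts at 18 months and 0.374% to 0.938% at 7 months. Their own mean was 4081 ± 796 counts at 18 months and 3120 ± 1244 counts at 7 months (SD, n = 6 each). Copies with other names, such as Gm6472, are not in these figures. The part of the copies in the differences with age was not tested.

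Lists of genes tied to the ribosome or to protein turnover differed in how many of their genes fell with age. Of 14 tested genes for ribosomal protein fusions and paralogs 10 fell and 0 rose in saline mice, with a median log2 fold change of -0.93. Fau, a fusion with a small-subunit protein, fell by 1.15. Rpl22l1, the paralog of Rpl22, had -1.40. Rps27rt also fell, with 0, 1 and 0 counts in 18-month saline and 27, 6 and 29 counts in 7-month saline libraries, too few for a fold. Its transcript is 100% identical to that of the member Rps27 over 341 nt, and how reads matching both were assigned is not given. Of 76 mitochondrial ribosomal protein genes 76 fell in nicotine mice. In saline mice 74 fell and 0 rose, with a median of -0.73. The smallest p there were those of Mrps36 with -1.37, Mrps23 with -0.83 and Mrpl36 with -1.23. The list of elongation factors also held genes that are not elongation factors, among them Tpt1, Eef2k, Etf1, Gspt1 and Gspt2. Of its 14 genes 6 fell and 1 rose in saline mice. Tpt1, itself encoded by a TOP mRNA, fell by 1.16 and Eef1g by 0.81, while Eef2k, the kinase that inhibits Eef2, rose by 0.40.

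Of 37 initiation factors 26 fell and 5 rose in saline mice, with a median of -0.42. Eif4a2 fell by 0.61, Eif2s1 by 0.67 and the helicase Eif4a1 by 0.77. Of 65 genes for ribosome biogenesis and the nucleolus 24 fell and 7 rose, with a median of -0.17. Nop10 fell by 0.88, Emg1 by 0.85 and Ltv1 by 0.57. The mTOR pathway and regulators of TOP mRNAs were split, with 18 of 46 falling and 13 rising. Igf1r, an upstream growth factor receptor, rose by 1.18, while Lamtor5, a part of the complex that anchors mTOR at lysosomes, fell by 0.99 and Rheb, its activating GTPase, by 0.74. Of 31 proteasome subunits 28 fell and 1 rose, with a median of -0.69, among them Psma4 with -0.85, Psmb7 with -0.92 and Psmc6 with -0.66. For these lists too the background was 24.6% falling and 21.5% rising among all genes. It was higher among short transcripts. Of protein-coding genes other than the members, 65.7% under 750 nt fell and 6.12% rose in saline mice. From 750 to 1500 nt the shares were 56.3% and 3.77%.

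No gene of these 7 lists passed edgeR's test for nicotine. At 18 months 0 of 281 tested genes passed, and 12 had an unadjusted p below 0.05, against 6.73% of all genes. DESeq2 called 1, Mrpl48, among 57 of all 18196 genes. Mrpl48, a mitochondrial large-subunit gene, had a log2 fold change of 0.58 in edgeR (SE 0.08, adjusted p = 0.067). At 7 months 0 of 283 passed, and 4 had an unadjusted p below 0.05, against 6.50% of all genes. DESeq2 called 1, Mrpl55, among 81 of all 17596 genes. Mrpl55 had a log2 fold change of 0.63 in edgeR (SE 0.14, adjusted p = 0.651). The list medians at 18 months lay between -0.01 and 0.04. At 7 months all 76 mitochondrial ribosomal protein genes had values above 0, where 48.7% of all genes did, with a median of 0.22. Of the proteasome subunits 29 of 31 did, with a median of 0.16. Without saline library 2 these counts were 57 of 76 and 21 of 31, with medians of 0.07 and 0.01, where 50.5% of all genes were above 0. Biogenesis genes had a median of 0.02 with all 6 libraries and -0.03 without saline library 2, and initiation factors 0.07 and -0.01.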

How the data were processed

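Both ages were deposited by the authors as tables of raw counts, with no scaling. Per the submitters' processing notes reads were mapped to GRCm38 with TopHat; version, counting tool, annotation and strand setting are not given in the sources used here. Per the labels' protocols the libraries were made with a small RNA kit, while the counts cover mRNAs.

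Counts were tested with edgeR 4.0.16 (R 4.3.3, limma 3.58.1) by TMM, filterByExpr and the quasi-likelihood F-test, Benjamini-Hochberg adjusted over all genes at 0.05. The nicotine comparisons used the 6 libraries of an age, and age and the difference used 4 group means of 12 libraries. The SE restates the F-test, being the absolute log2 fold change over the root of F. Printed CPM come from the 12-library scaling, apart from sums over marker and RNA composition lists, which use library totals without TMM factors. Exact permutation of 3 against 3 libraries cannot go below p = 0.1 and was not used. Lengths and GC are from GENCODE (GRCm38), coordinates and start-site sequences from RefSeq. Copies were sought with BLAST 2.17.0. Figures used matplotlib 3.10.9.

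Alternatives were RLE and upper-quartile factors, TMM without the members, no filter, DESeq2 1.42.0, a replicate block, length and GC offsets (splines, 4 df), 1 library left out at a time and fits without 7-month libraries that stood apart. Members and gene lists were chosen with earlier results of these data known. Named genes are the 3 highest and 3 lowest members of each comparison, the 5 highest and 5 lowest per kb, members with a role noted beforehand, those nearest the median and up to 3 smallest-p genes of a list; library departures and copies were chosen after their values were seen, and 2 genes that the rule names are not reported here. Replicates differed beyond sampling noise, with chi-square per degree of freedom of 6.90 to 106.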

Additional observations from a re-analysis of the deposited data

How the results depend on the processing

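In all alternatives run, 0 of 75 members were called for nicotine at 18 or 7 months or for the difference, and 74 or 75 fell with age. The calls lost with age in saline mice were Rpl29 with length and GC offsets (adjusted p = 0.0547) and Rps18 without both first 7-month libraries (adjusted p = 0.0537). With length and GC offsets the members' median was -0.83 (age, nicotine) and -0.69 (age, saline), against -1.24 and -0.94 over the same genes without offsets. The median difference of the nicotine effect was -0.0326 without saline 2 and nicotine 1 at 7 months. Leaving out 1 library gave medians of -0.01 to 0.04 (nicotine, 18 months), 0.06 to 0.38 (nicotine, 7 months), -1.32 to -1.27 (age, nicotine), -1.22 to -0.90 (age, saline) and -0.40 to -0.05 (difference).

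Values near 0 changed sign. With length and GC offsets Rps2 had -0.15 at 7 months and 0.16 for the difference, and Rpl34 0.12 for the difference. Without saline 2 and nicotine 1 at 7 months Rps2, Rpl4 and Rpl30 had -0.23, -0.0754 and -0.0910 for nicotine, and Rpl30, Rps2 and Rpl34 had 0.14, 0.22 and 0.26 for the difference. Over single libraries left out, nicotine at 7 months gave Rps2 -0.13 to 0.22, Rpl4 -0.0565 to 0.23 and Rpl30 -0.0603 to 0.26; Rpl29 at 18 months ranged over -0.37 to 0.0079; the difference gave Rpl30 -0.23 to 0.11, Rps2 -0.23 to 0.13 and Rpl34 -0.21 to 0.22. The cause was not tested.

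Over all genes DESeq2 called 57, 81 and 37 genes for nicotine at 18 months, at 7 months and for the difference, where edgeR called 8, 2 and 1. A replicate block moved no member's call (medians 0.01, 0.29, -1.30, -0.98 and -0.27 in the order above). Same-number libraries deviated with correlations of -0.16 to -0.14 at 18 and -0.09 to 0.10 at 7 months. These correlations rest on deviations within small groups and cannot show whether the numbers mark pairs. The first nicotine and first saline library at 7 months share a label series that the other 7-month libraries do not. Over mRNA rows only, the mean share of counts was 1.05% (18-month nicotine), 1.04% (18-month saline) and 2.37% (7-month nicotine); without the RNA composition rows it was 0.983% and 0.976% at 18 months. By the longest transcript the median level at 18 months was 120 CPM per kb. No row is typed as pseudogene, so that alternative to the ps rows was not run. At 7 months the spread between saline libraries limits what can be seen.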
